A study of Mus musculus with 6 samples.

Results

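The genes described here are the ATF4 and CHOP regulators, 10 genes that encode transcription factors of the integrated stress response and other proteins tied to that response. They are Atf4, Atf5, Atf3, Ddit3 (which encodes CHOP), Trib3, Cebpb, Cebpg, Nupr1, Ppp1r15a and Sesn2. Their rows were taken from the deposited table by gene symbol, and all 10 were found among its 18956 genes. The choice of genes was made with earlier results of these data known. Gene expression had been measured by bulk RNA sequencing of isolated mouse lung endothelial cells in 6 libraries. The 3 control libraries (WT 1 to 3) carry the genotype label WT and are marked Cre-negative, and the other 3 (CSE-KO 1 to 3) carry the genotype label CSE-KO and are marked Cre-positive. CSE is cystathionine gamma-lyase, which makes cysteine out of cystathionine, and the comparison addresses how its loss changes endothelial gene expression. The driver of Cre, the deleted exons, the strain, age and sex of the mice, any allele that the Cre-negative mice also carry, and whether replicates were separate animals or cultures were not stated in the sources at hand. The p-values cover the spread among the libraries alone, and that spread may be technical.

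In the integrated stress response, kinases that sense amino acid shortage, unfolded protein, haem shortage or double-stranded RNA phosphorylate the initiation factor eIF2. Most translation then slows, while the mRNAs of Atf4, Atf5, Ddit3 and Ppp1r15a are translated better through short reading frames in their leaders. ATF4 pairs with other bZIP proteins (factors that bind DNA as dimers through a basic region and a leucine zipper) and switches on genes of amino acid uptake and synthesis. CHOP, an ATF4 target that is itself a factor, adds genes linked to cell death. Protein levels, translation and eIF2 phosphorylation were not measured here, so all values below are of mRNA.

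Cth, the gene of CSE, gave 29, 27 and 26 normalized counts (WT 1 to 3) against 49, 43 and 63 (CSE-KO 1 to 3). A normalized count is a number of reads put on a common scale across libraries. Contrary to the label, its level was higher in CSE-KO (log2 fold change 0.89, SE 0.18, limma adjusted p = 0.00079). Every direction below is that of libraries so labelled. A whole-gene value cannot show the loss of a few exons. Totals of normalized counts ran from 6028772 to 6052275 in WT and from 5698922 to 5765008 in CSE-KO. The squared differences between the 3 WT libraries were 0.693 to 0.741 of what counting noise alone gives over 12149 genes, and between CSE-KO 2 and 3 they were 0.850 of it. CSE-KO 1 stood apart from these, at 1.72 and 2.02. In the 3441 of these genes under 0.05 normalized counts per exonic base, the values were closer to counting noise. They were 0.851 to 0.905 within WT, 1.02 between CSE-KO 2 and 3, and 1.22 and 1.40 for CSE-KO 1. Because of the values over all 12149 genes, the calls of the regulators are also given with fewer samples. There the WT libraries were counted as 1 sample and CSE-KO 2 and 3 as 1 sample, here called the fit with the fewest samples. With 1 WT sample no spread within WT enters that fit. Its p-values lean on variances shared across genes and cannot show that a call would hold in independent samples. The endothelial markers Pecam1, Cdh5 and Eng were abundant in all libraries, between 1843 and 2849 normalized counts, while Vwf had 1, 5 and 10 normalized counts in the WT libraries against 12, 9 and 17 in those labelled CSE-KO. Of 13 endothelial markers, 11 were lower in CSE-KO, against 39.0% of all tested genes. Cdh5 was among them, and its call was lost when library totals were made equal (limma adjusted p = 0.68). The surfactant and airway markers Sftpc, Sftpb, Sftpa1, Scgb1a1 and Nkx2-1 had no row in the table. None of 3 tested epithelial markers was called, against 77.4% of all tested genes. Of 6 lymphatic endothelial markers 5 were lower, with Prox1 at 2786, 2773 and 2805 across WT and at 1085, 707 and 703 across CSE-KO. Of 11 fibroblast and mural markers 5 were higher and 3 lower. Over all tested genes 38.3% were higher and 39.0% lower.

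All 10 regulators were higher in the libraries labelled CSE-KO, and in none of them did the libraries of the groups overlap. The rises ran from 1.21-fold for Cebpb to 6.34-fold for Ddit3, with a median log2 fold change of 0.86 against 0.0014 over all 13750 genes tested. The background is large: by the same test (limma, Benjamini-Hochberg adjusted p under 0.05) 77.4% of tested genes were called changed, 38.3% higher and 39.0% lower. The groups did not overlap in 80.4% of tested genes, and in 40.0% CSE-KO was the higher. A call by itself therefore says little about any one of these genes, and the sizes carry more. At least a 2-fold rise was seen in Ddit3, Atf5, Nupr1 and Atf3, that is in 4 of 10, against 9.93% of tested genes. Tested against a fold of 1.2 in place of no change, 8 of 10 were called higher, against 23.1% of tested genes. Trib3 and Cebpb lost their calls there. In the fit with the fewest samples the rises were of nearly the same size, with log2 fold changes from 0.28 for Cebpb to 2.66 for Ddit3.

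**Figure D1:**
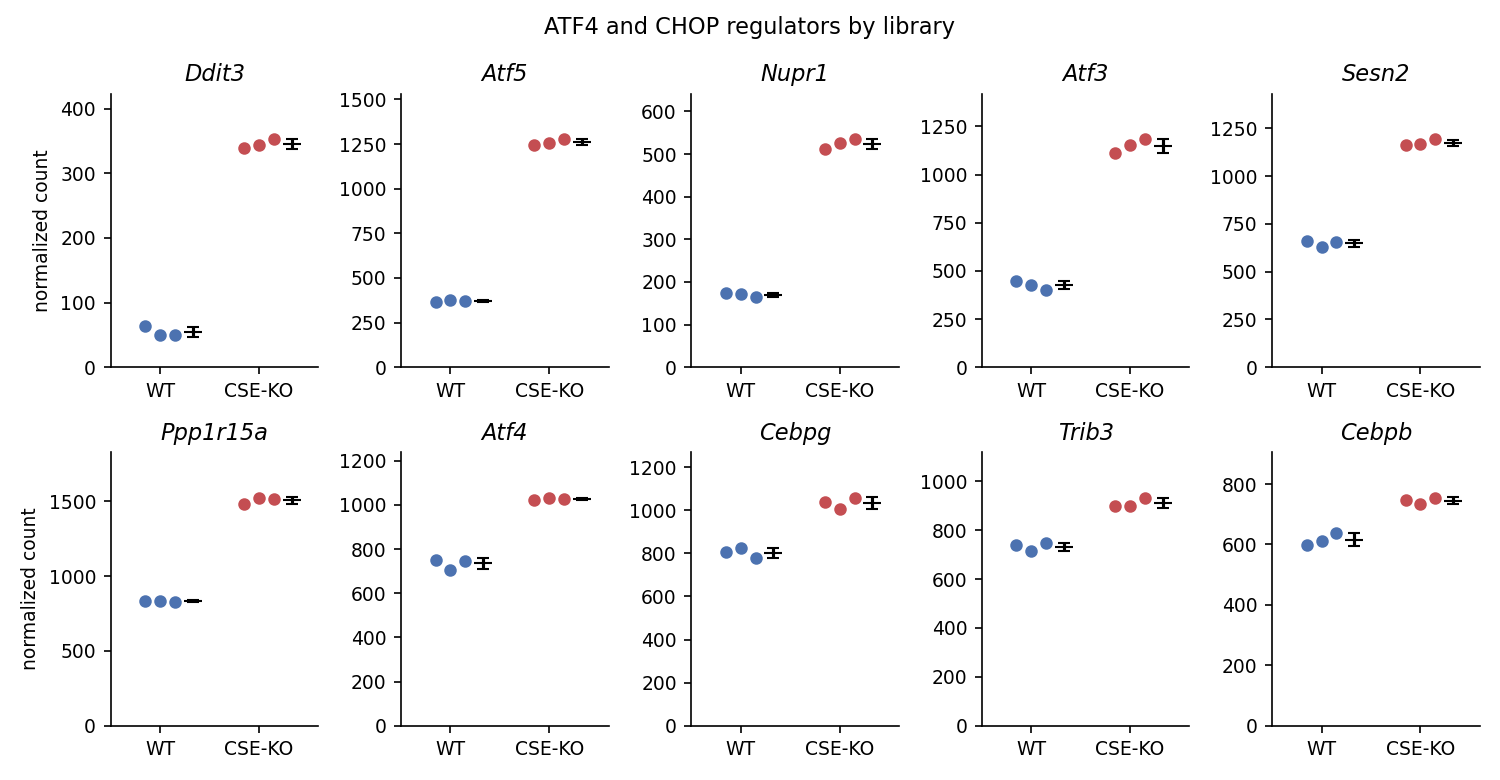
Normalized counts of the 10 regulators (vertical axes from 0, a scale for each gene) in the 3 WT libraries (blue) and the 3 libraries labelled CSE-KO (red), in the order 1 to 3, with the mean and SD of each group in black. In every panel the lowest CSE-KO library lies above the highest WT library, by the largest ratio in Ddit3 and the smallest in Cebpb.

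Within its group CSE-KO 1 ranked lowest for 8 of the 10 regulators, and CSE-KO 3 was the highest in 8. Among all genes called higher, CSE-KO 1 was lowest in 57.9%. Transcripts of other cells moved with the groups as well. Of 15 macrophage and monocyte markers tested, 13 were called higher and 1 lower, against 38.3% and 39.0% of all tested genes. However, 10 of the 15 were under 10 in every WT library and were tested only because of the CSE-KO libraries. With any CSE-KO library left out, 3 were called higher. The summed level of the markers went from between 1051 and 1096 in WT to between 1638 and 1872 in CSE-KO. Ptprc, Adgre1, Marco and Itgam, named after their values were seen, were the 4 markers at 0 in all WT libraries. They had 18 to 62 in the CSE-KO libraries, through which alone they were tested. The mesothelial markers summed to 208 to 223 in WT and to 796 to 952 in CSE-KO. Of 5 tested, 5 were called higher, against 38.3% of all tested genes. Of these 5, 3 were tested only because of the CSE-KO libraries, and 2 were called with any CSE-KO library left out. Their part in the levels of the regulators was not tested, and in bulk RNA more cells of a type cannot be told apart from more RNA per cell.

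Atf4, the central factor of the response, rose modestly. It had 752, 707 and 745 normalized counts in the WT libraries against 1024, 1033 and 1025 in those labelled CSE-KO. The CSE-KO libraries lay within 9 counts of each other, a coefficient of variation of 0.48%, and all were well above the WT libraries. The log2 fold change was 0.48 (SE 0.031, limma adjusted p = 8.6e-08, and 0.00034 with the fewest samples), and 21.3% of tested genes rose by more. Atf4 (ENSMUSG00000042406) lies on chromosome 15 from 80255184 to 80257541, plus strand, in mm10, the build of all positions given here.

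Atf5, a close relative whose mRNA is under the same kind of translational control, rose far more. It had 365, 375 and 372 normalized counts in the WT libraries against 1247, 1259 and 1278 in those labelled CSE-KO. Both groups were narrow and wide apart, with the lowest CSE-KO library 3.33 times the highest WT library. The rise was 3.40-fold (log2 fold change 1.77, SE 0.030, limma adjusted p = 1.9e-11), and 5.05% of tested genes rose by more. Atf5 (ENSMUSG00000038539) lies on chromosome 7 from 44812256 to 44816658, minus strand. Atf5 had the smallest adjusted p of the 10, with or without the libraries counted together.

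Ddit3, the gene of CHOP, showed the steepest rise of the regulators. It was low in WT, at 63, 50 and 50, and reached 339, 344 and 353 in CSE-KO. WT 1 was the highest of its group and still far below every CSE-KO library. The rise was 6.34-fold (log2 fold change 2.67, SE 0.099, limma adjusted p = 2.1e-09, and 2.7e-05 with the fewest samples), and it was exceeded by 2.65% of tested genes. Ddit3 (ENSMUSG00000025408) lies on chromosome 10 from 127290774 to 127296288, plus strand. Its WT libraries had the highest coefficient of variation of any group of the 10 genes, 13.8%.

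Atf3, a stress-induced repressor that binds many of the same sites, climbed from 447, 427 and 403 across WT libraries to 1112, 1151 and 1184 across CSE-KO libraries. No library of one group came near the other. The log2 fold change was 1.43 (SE 0.042, limma adjusted p = 4.1e-10, and 2.2e-05 with the fewest samples). Atf3 (ENSMUSG00000026628) lies on chromosome 1 from 191170296 to 191218039, minus strand.

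Promoter sequence is shown where a motif tied to ATF4 or its relatives was found, since these genes moved together. RefSeq windows on GRCm38.p6, from 250 bases before to 50 after a transcription start, were at hand for all 10 genes (11 windows, as Atf5 has a pair). They were searched on both strands for TGATGNAA, the core letters of a C/EBP-ATF element, and for TGACGTCA, the cAMP response element. The first was found in 3 of the 11 windows, those of Atf3, Nupr1 and Trib3, and in 3.97% of 32851 RefSeq windows of this length. The second was found in 1, that of Ppp1r15a, and in 1.79% of all windows. The stretches below run 5′ to 3′ on the strand of the gene with the matching letters in capitals. In Atf3 and Nupr1 the match reads on the opposite strand and begins 110 bases before the start, and in Ppp1r15a it begins 12 bases before it. The starts that RefSeq gives for Atf3 and Nupr1 lie inside the genes as bounded by the deposited positions.
Atf3, chr1:191183416-191183463, minus strand: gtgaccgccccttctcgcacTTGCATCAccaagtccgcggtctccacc
Nupr1, chr7:126625553-126625600, minus strand: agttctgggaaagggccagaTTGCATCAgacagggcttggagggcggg
Ppp1r15a, chr7:45526269-45526300, minus strand: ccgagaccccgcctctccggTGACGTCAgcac
In Trib3 the letters TTACATCA lay just after the start. The windows of Atf4, Atf5, Ddit3, Cebpb, Cebpg and Sesn2 did not hold either run of letters, which says nothing of sites elsewhere. A match is a description of the letters only, and no binding was measured.

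Cebpb and Cebpg encode C/EBP proteins that pair with ATF4 or CHOP, and both rose slightly. Cebpg, which lacks an activation domain and acts as a partner, had 805, 825 and 780 normalized counts in the WT libraries against 1038, 1006 and 1059 in those labelled CSE-KO. Its log2 fold change was 0.36 (SE 0.032, limma adjusted p = 1.1e-06, and 0.00085 with the fewest samples). Cebpb, an activator that ATF4 and CHOP both bind, had 599, 610 and 639 normalized counts in the WT libraries against 747, 734 and 755 in those labelled CSE-KO. The groups were separate but close, the lowest CSE-KO library being 1.15 times the highest WT library. Its rise of 1.21-fold (log2 fold change 0.28, SE 0.034, limma adjusted p = 1.9e-05) was not called when tested against a fold of 1.2 (adjusted p = 0.58), whereas that of Cebpg was (adjusted p = 0.01). Cebpg (ENSMUSG00000056216) lies on chromosome 7 from 35046422 to 35056573, minus strand, and Cebpb (ENSMUSG00000056501) on chromosome 2 from 167688915 to 167690418, plus strand. Their relatives went the other way. Cebpd fell by 0.35 on the log2 scale (SE 0.042, adjusted p = 1.6e-05), and Cebpa had 55, 58 and 53 normalized counts in the WT libraries against 40, 39 and 50 in those labelled CSE-KO, a difference called here (adjusted p = 0.04) but not with the fewest samples (adjusted p = 0.17). Cebpa and Cebpd were picked as relatives after their values had been seen.

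Among all 47 bZIP genes tested, the 6 described here had the ranks 1 (Ddit3), 3 (Atf5), 6 (Atf3), 15 (Atf4), 21 (Cebpg) and 23 (Cebpb) by log2 fold change. Of the other 41, 19 were higher and 13 lower, against 38.3% and 39.0% of all tested genes. Their median of 0.15 fell to between 0.026 and 0.11 when any library was left out. With the fewest samples 7 were lower. Creb3l3, of rank 2, had 6, 6 and 4 in WT against 19, 19 and 22 in CSE-KO and was tested only because of the CSE-KO libraries. Jdp2, a repressor that pairs with Jun proteins and with ATF3, rose by a log2 fold change of 1.73 (SE 0.070, adjusted p = 3.5e-09). Fosl1, a Fos family member, rose by 1.23 (SE 0.041) and Atf6, the membrane-bound sensor of the unfolded protein response, by 1.08 (SE 0.028). Creb3l2, a membrane-bound factor of the secretory pathway, fell by 0.59 (SE 0.027). The lowest values belonged to Maf (-2.42, SE 0.36), Fosb (-2.17, SE 0.32) and Fos (-1.28, SE 0.14), named after their values were seen. In these 3, CSE-KO 1 was well above the other CSE-KO libraries, with Fos at 475 against 377 and 329, and their calls were lost with the fewest samples (adjusted p = 0.22, 0.22 and 0.084).

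**Figure D2:**
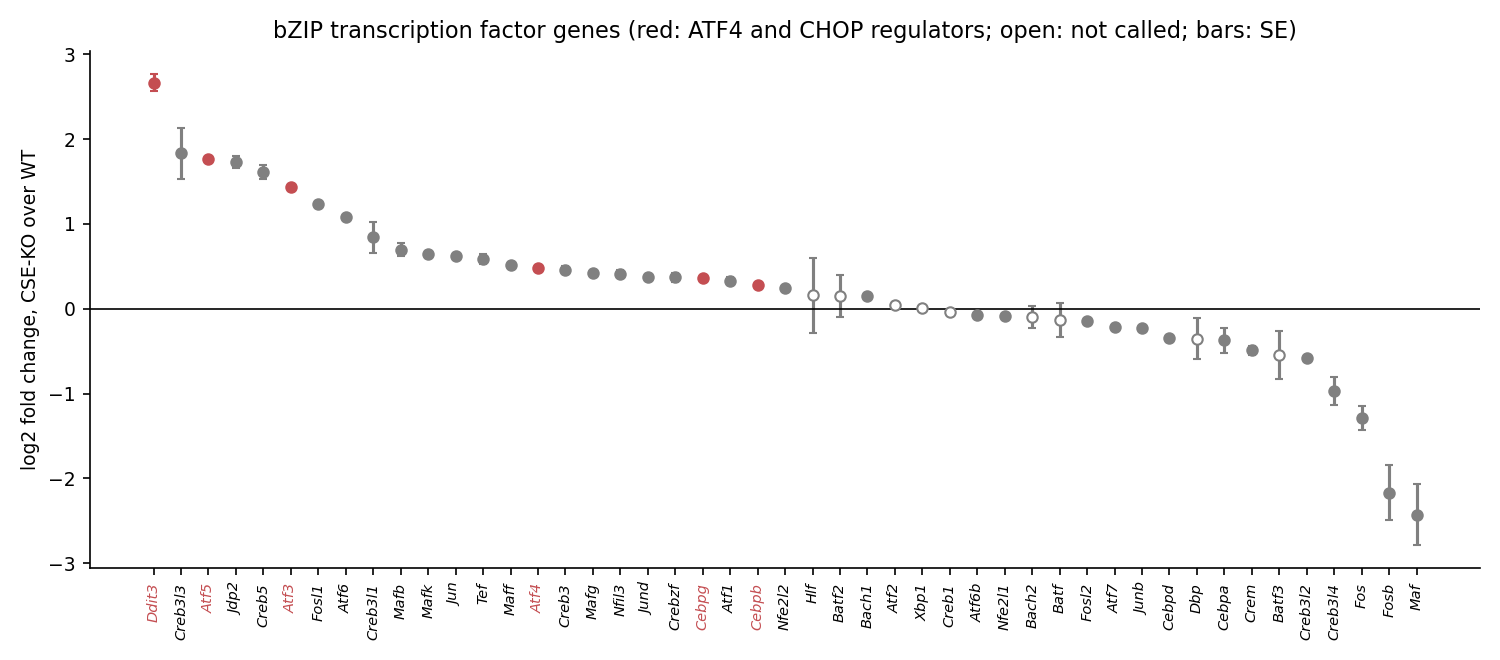
Log2 fold change (vertical axis, CSE-KO over WT) of the 47 tested bZIP genes in descending order, with bars of 1 standard error; red marks the 6 ATF4 and CHOP regulators among them and open circles mark genes that were not called. Ddit3 is the highest at 2.67 and Maf the lowest at -2.42, and all 6 red points lie above 0.

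Trib3, a pseudokinase that binds ATF4 and CHOP and damps their activity, had 738, 715 and 747 normalized counts in the WT libraries against 898, 900 and 934 in those labelled CSE-KO. The groups did not overlap, but the shift was small, with a log2 fold change of 0.31 (SE 0.031, limma adjusted p = 2.9e-06, and 0.0023 with the fewest samples). Tested against a fold of 1.2 it was not called (adjusted p = 0.13). Trib3 (ENSMUSG00000032715) lies on chromosome 2 from 152337422 to 152344032, minus strand. Its relatives, chosen after their values were seen, were lower in the same libraries. Trib1 fell by 0.30 on the log2 scale (SE 0.024, adjusted p = 6.6e-07), and Trib2 had 279, 344 and 272 normalized counts in the WT libraries against 79, 49 and 37 in those labelled CSE-KO (log2 fold change -2.49, SE 0.29, adjusted p = 0.00053, and 0.058 with the fewest samples).

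Ppp1r15a encodes GADD34, the stress-induced subunit that brings a phosphatase to eIF2 and so closes the loop. It had 836, 833 and 827 normalized counts in the WT libraries against 1480, 1524 and 1518 in those labelled CSE-KO. CSE-KO 1 was the lowest of its group but far above every WT library. The log2 fold change was 0.86 (SE 0.024, limma adjusted p = 3.7e-10, and 5.1e-05 with the fewest samples). Ppp1r15a (ENSMUSG00000040435) lies on chromosome 7 from 45522916 to 45526268, minus strand. Ppp1r15b, the constitutive subunit with the same task and a gene picked after its values were seen, rose by 0.37 (SE 0.027, adjusted p = 2.6e-07).

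Nupr1 encodes a small nuclear protein induced by many stresses and known as an ATF4 target. It climbed from 173, 172 and 165 across WT libraries to 512, 526 and 535 across CSE-KO libraries. The libraries within each group were close together and the groups wide apart. The rise was 3.08-fold (log2 fold change 1.62, SE 0.048, limma adjusted p = 4.4e-10, and 4.1e-05 with the fewest samples). Nupr1 (ENSMUSG00000030717) lies on chromosome 7 from 126623249 to 126630861, minus strand.

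Sesn2, the leucine-binding sestrin that restrains the growth kinase complex mTORC1, had 660, 629 and 656 normalized counts in the WT libraries against 1161, 1169 and 1194 in those labelled CSE-KO. All CSE-KO libraries were well above all WT libraries. Its log2 fold change of 0.86 (SE 0.030, limma adjusted p = 1.3e-09, and 6.4e-05 with the fewest samples) was as large as that of Ppp1r15a. Sesn2 (ENSMUSG00000028893) lies on chromosome 4 from 132492032 to 132510501, minus strand. The other sestrin genes, again picked after their values were seen, were lower: Sesn1 fell by 1.26 on the log2 scale (SE 0.075, adjusted p = 5.5e-08) and Sesn3 by 0.65 (SE 0.057, adjusted p = 1.4e-06).

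Set against Atf4 in the same library, the other regulators divided into those that gained on it and those that lost. Ddit3 went from 0.0739 of the Atf4 count in WT to 0.336 in CSE-KO, a ratio 4.55 times as high. Atf5 went from 0.505 to 1.23, Atf3 from 0.580 to 1.12 and Nupr1 from 0.232 to 0.510. Sesn2 and Ppp1r15a gained less, with ratios 1.30 and 1.29 times as high. Trib3 went from 0.998 to 0.886, and Cebpb went from 0.839 to 0.726. The ratio of Cebpg also moved down, to 0.920 of its WT value. For each of the 9 ratios, 6 up and 3 down, the groups did not overlap, and the exact two-sided permutation test gave p = 0.1, the smallest that 3 against 3 libraries allow and the same after adjustment over the 9. Among the 13749 tested genes besides Atf4, the ratio to Atf4 was also without overlap in 85.5%, higher in 15.1% and lower in 70.4%, so the lack of overlap by itself sets none of the 9 apart. Gene length cancels between the groups in these ratios, but they do not show which gene is the more abundant.

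**Figure D3:**
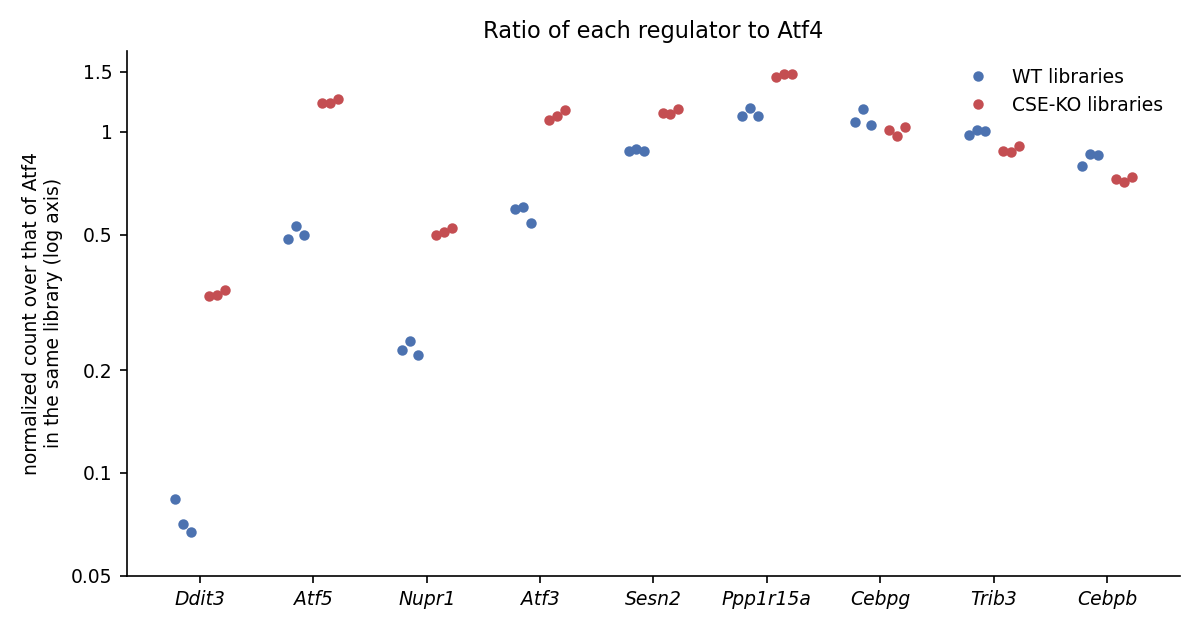
Normalized count of each of the other 9 regulators divided by that of Atf4 in the same library (vertical log axis), for the 3 WT (blue) and the 3 CSE-KO (red) libraries. The red points lie above the blue for Ddit3, Atf5, Nupr1, Atf3, Sesn2 and Ppp1r15a and below them for Cebpg, Trib3 and Cebpb, with no overlap.

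The order of the levels changed as well. Levels of different genes were compared per kilobase of the longest transcript in the consensus coding set (CCDS). In WT the highest were Atf4 (426 normalized counts per kilobase) and Cebpb (410), whose libraries overlapped, then Trib3 (362) and Ppp1r15a (296). Atf3 (215), Nupr1 (205) and Atf5 (204) followed, with each overlapping the next, then Sesn2 (187), Cebpg (171) and, far below, Ddit3 (61.0). In CSE-KO the order was Atf5 (695), Nupr1 (632), Atf4 (596) and Atf3 (579), of which only the last pair overlapped. Below them came Ppp1r15a (537), Cebpb (496), Trib3 (449), Ddit3 (388), Sesn2 (338) and Cebpg (220) with no overlap between neighbours. Atf5 thus moved from place 7 to place 1, and it did so too when all annotated exons served as the length. Other places depend on the length used: over all annotated exons, Nupr1 was 9 of 10 in WT at 67.6 per kilobase and shared its place with Ddit3 in CSE-KO. By fold change the order was Ddit3, Atf5, Nupr1, Atf3, then Sesn2 and Ppp1r15a together, Atf4, and last Cebpg, Trib3 and Cebpb.

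These genes are dense in reads, which bears on the size of their rises. In its highest library each regulator had between 0.188 and 0.641 normalized counts per exonic base, and 82.4% of tested genes were below the lowest of them. No gene of the table with an exonic length of at least 500 bases exceeded 0.843, that of Plvap. If reads with a common start had been counted once, dense genes would be compressed. The submitters' processing notes name Picard without a role, and whether duplicates were removed was not stated in the sources at hand. A correction for such loss, chosen after seeing the data, assumes that starts fall evenly over the exons. It raised the log2 fold change of Atf5 from 1.77 to 2.28, of Atf3 from 1.43 to 1.79, of Ppp1r15a from 0.86 to 1.11, of Atf4 from 0.48 to 0.62 and of Ddit3 from 2.67 to 2.80. With the longest CCDS transcript as the length, Atf5 reached 2.38, or 5.19-fold in place of 3.40-fold, and Nupr1 2.12, in place of 1.62 as deposited and 1.74 with all exons. The direction and the call of all 10 stayed, and the median rise became 1.05 with all exons and 1.06 with CCDS transcripts. No reads were examined, so the correction is an if-then value and not a better estimate.

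**Figure D4:**
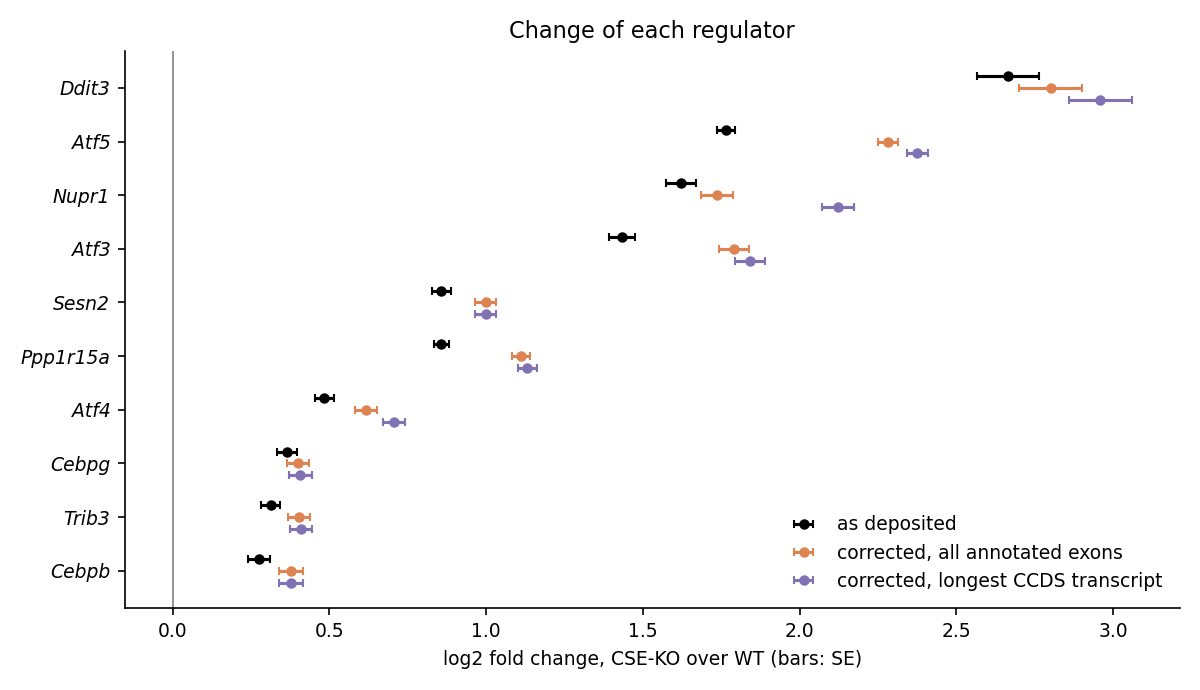
Log2 fold change of each regulator (horizontal axis, CSE-KO over WT, bars of 1 standard error) as deposited (black) and corrected for reads lost at shared start positions, with all annotated exons (orange) or the longest CCDS transcript (purple) as the length. All values lie above 0, from 0.28 for Cebpb to 2.67 for Ddit3 as deposited, and the correction adds most for Atf5 with either length, then for Atf3 with all exons and for Nupr1 with CCDS transcripts.

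Several of these genes overlap a neighbour on the other strand, and the strand setting of the counting was not stated. Tmem189 covers 312 of the 1504 exonic bases of Cebpb and had 474, 509 and 514 normalized counts in the WT libraries against 543, 580 and 544 in those labelled CSE-KO, a difference of the same direction as that of Cebpb. Without the strand, reads from the shared bases cannot be told apart. Mars, a methionyl-tRNA synthetase gene, covers 68 of 1713 exonic bases of Ddit3, and Nup62 and Il4i1 each cover 82 of 1993 of Atf5. Another annotated gene entry, also named Ddit3, shares 105 of the 1713 bases, and its part in the value of Ddit3 was not tested. Mars went from 710, 678 and 689 to 975, 1049 and 988. These neighbours are named for their position, after their values were seen.

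Upstream of Atf4, the mRNAs of the eIF2 pathway were called about as often as genes at large. The 21 genes were those of eIF2 kinases, their regulators, eIF2, its exchange factor eIF2B and the phosphatase parts. Of them 8 were higher and 7 lower, against 38.3% and 39.0% of all tested genes. Their median log2 fold change was -0.0052, near that of all tested genes. Of the 4 kinase genes 3 were lower. Eif2ak4, which encodes the amino acid sensor GCN2, had 628, 628 and 655 normalized counts in the WT libraries against 403, 410 and 409 in those labelled CSE-KO (log2 fold change -0.64, SE 0.035, adjusted p = 3e-08). Eif2ak1, of the haem-regulated kinase, fell by 0.37 (SE 0.032, adjusted p = 1.2e-06). Eif2ak3, of the endoplasmic reticulum kinase PERK, differed by -0.11, which was called here but not with equal totals (adjusted p = 0.43). Among the parts of eIF2 and eIF2B, Eif2s2 rose by 0.72 (SE 0.035) and Eif2b3 by 0.75 (SE 0.047). Eif2ak1 and Eif2ak3 were picked after their values were seen.

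Downstream, the known ATF4 targets of amino acid supply moved together. All 24, Cth itself among them, were called higher, against 38.3% of all tested genes, with a median log2 fold change of 1.09. At least a 2-fold rise was seen in 14 of them, against 9.93% of all tested genes. Slc7a3, at 8, 6 and 4 in WT, was tested only because of the CSE-KO libraries. Asns, asparagine synthetase, went from 440, 428 and 409 to 1229, 1238 and 1230 (log2 fold change 1.53, SE 0.033, adjusted p = 6.7e-11). Slc7a11, the cystine carrier of system xc-, went from 641, 663 and 658 to 3553, 3728 and 3678 (log2 fold change 2.48, SE 0.026, adjusted p = 5.3e-13). The neutral amino acid carrier Slc1a4 rose by 2.44 (SE 0.050) and the mitochondrial carboxykinase Pck2 by 1.37 (SE 0.033). The smallest rise was that of Slc38a2, the carrier SNAT2, at 0.14 (SE 0.023, adjusted p = 0.00019), named after its value was seen. All 13 tRNA synthetase genes under ATF4 were higher too, against the same 38.3% of all tested genes, with a median of 0.72. Cars, of the cysteinyl-tRNA synthetase, rose by 1.09 (SE 0.032), Yars by 1.05 (SE 0.033), Aars by 0.98 (SE 0.025) and Iars by 0.77 (SE 0.025). These lists were drawn up with earlier results of the same libraries known and are not independent evidence of their direction.

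Targets tied to stress signalling and cell death were mixed. Of 23 tested, 14 were higher and 5 lower, against 38.3% and 39.0% of all tested genes. Their median log2 fold change was 0.45. The stress cytokine gene Gdf15 went from 67, 55 and 66 to 705, 717 and 755 (log2 fold change 3.53, SE 0.080, adjusted p = 8.9e-11). The growth factor gene Vegfa went from 241, 265 and 272 to 963, 1038 and 1079, and Stc2, of a secreted glycoprotein, from 8, 5 and 9 to 412, 435 and 431. Stc2 and another gene of the list called higher, Adm2, were tested only because of the CSE-KO libraries. Hmox1, haem oxygenase, rose by 0.62 (SE 0.024). Genes of this list linked to cell death differed among themselves, in a choice made after their values were seen. The proapoptotic genes Pmaip1 and Bbc3 rose by 3.56 (SE 0.11) and 1.08 (SE 0.091), and the death receptor gene Tnfrsf10b by 0.12 (SE 0.031, adjusted p = 0.0049, and 0.13 with the fewest samples). The proapoptotic gene Bcl2l11 differed by 0.019 (SE 0.055, adjusted p = 0.76) and was not called. Bcl2, which CHOP is known to repress, fell by 1.63 (SE 0.086, adjusted p = 2.4e-08).

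**Figure D5:**
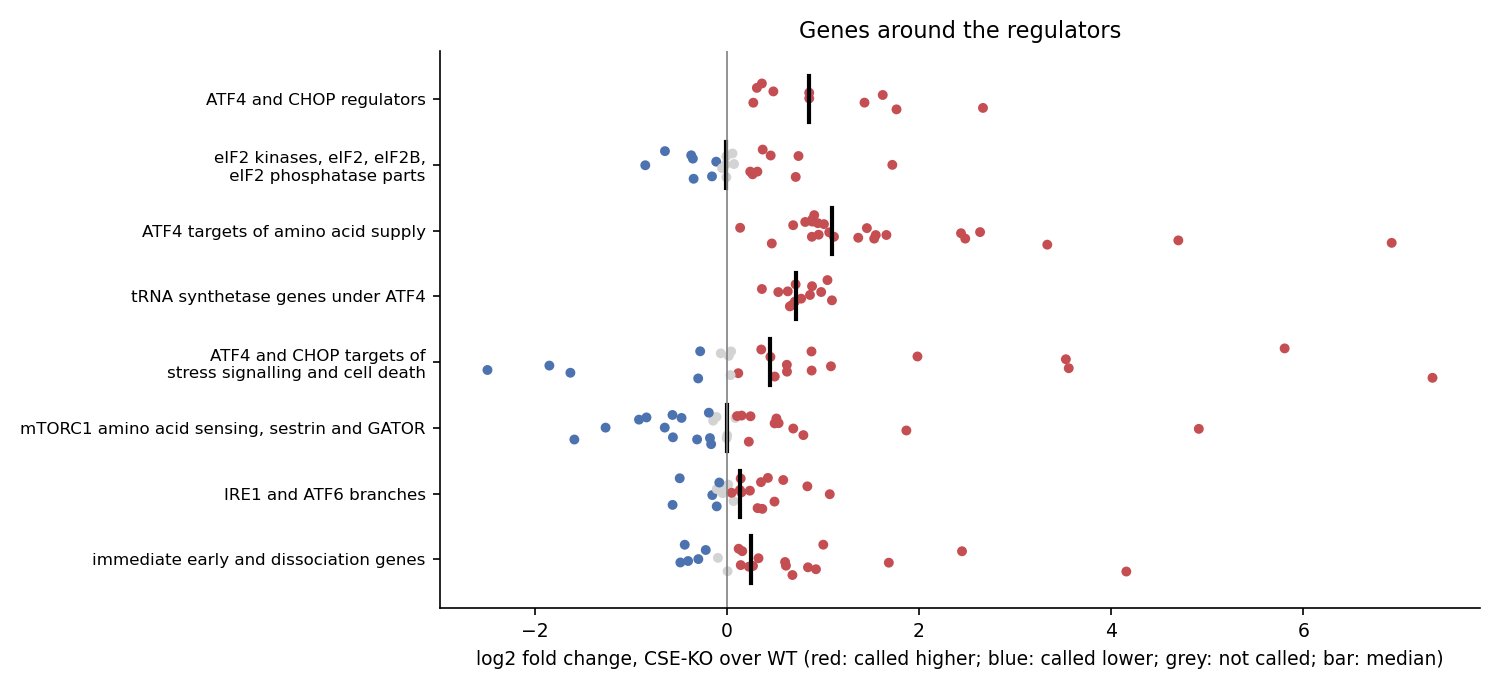
Log2 fold change (horizontal axis, CSE-KO over WT) of every tested gene in 8 lists, with red for genes called higher, blue for lower and grey for not called, and a black bar at each list's median; vertical scatter within a row has no meaning. The regulators, the amino acid targets and the tRNA synthetase genes lie wholly to the right of 0, while the eIF2 and mTORC1 lists lie on both sides with medians of -0.0052 and -0.0021.

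Several regulators, Atf3 and Ppp1r15a among them, are also induced when cells are taken from tissue, so genes of that kind were looked at beside them. Of 22 immediate early and dissociation genes, 15 were higher and 5 lower, against 38.3% and 39.0% of all tested genes. Their median was 0.25. The heat shock gene Hspa1a climbed from 50, 44 and 54 across WT libraries to 861, 886 and 910 across CSE-KO libraries, and Hspa1b from 291, 293 and 306 to 934, 949 and 983. Gadd45b rose by 2.45 (SE 0.061) and Hsph1 by 0.93 (SE 0.033), while Fos, as given above, was lower. Their part in the levels of Atf3 and Ppp1r15a was not tested.

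The genes most like Atf4 in their course over the 6 libraries, out of 10455 compared, were Nub1, Mrps17 and Eif3c. Their centred log2 values lay at Euclidean distances of 0.033, 0.038 and 0.041 from those of Atf4, and Nub1 went from 702, 675 and 699 to 978, 972 and 958. For Ddit3 they were Rassf6, Tmem154 and Napb, at distances of 0.16, 0.21 and 0.23. Tmem154 went from 82, 69 and 79 to 488, 500 and 528. None of the other 9 regulators could enter, as members were left out of the search. This likeness rests on 6 libraries in 2 groups and is a description with no test.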

How the data were processed

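The authors deposited a whole-number score per gene and library, read here as a normalized count (a read count divided by a library size factor and rounded); this was inferred from the values. The submitters' processing notes name build mm10 and, without roles, DESeq2 1.26.0, featureCounts 1.6.5, Picard 2.21.7, STAR 2.7.3a and Trimmomatic 0.39. Totals of normalized counts only approximate the depth in reads.

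Values were taken as log2(value + 0.5), which understates changes of low genes. Genes with at least 10 in at least 3 libraries (13750) were fitted on group with limma 3.58.1 in R 4.3.3 (mean trend, robust variances, two-sided), and a gene was called at a Benjamini-Hochberg adjusted p under 0.05 over all of them. The fit was tested on simulated data. SE is limma's moderated standard error. Exonic lengths came from GENCODE mouse release 21 for 18940 genes.

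The regulators and the gene lists were chosen with earlier results of these data known. Named genes were the 10 regulators, up to 4 called genes per list with the smallest adjusted p and a group mean of at least 50, the 3 highest of each marker list, Cth, and the 3 genes most like Atf4 and Ddit3. Some genes that this rule selects are not reported here. Alternatives covered scaling, filters, pseudocounts, variance settings, a test against a fold of 1.2, a replicate block and left-out or merged libraries. The correction for shared start positions was chosen after seeing the data.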

Additional observations from a re-analysis of the deposited data

How the results depend on the processing

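Over 19 alternative settings, the log2 fold changes of all 10 regulators kept their direction. Their calls were kept as well, except that against a fold of 1.2 the calls of Trib3 (0.31, adjusted p = 0.13) and Cebpb (0.28, adjusted p = 0.58) were lost. The same test called 6711 genes in place of 10639, with 3182 higher and 3529 lower. With the fewest samples 8196 genes were called. Making totals equal moved the median of all tested genes from 0.0014 to 0.077 on the log2 scale and the calls from 5270 higher and 5369 lower to 6006 and 4735, and it moved the medians of the eIF2 and mTORC1 lists to 0.069 and 0.071. Leaving out any library left between 9676 and 10167 genes called. Leaving out a CSE-KO library took the macrophage calls from 13 higher to 3 and the mesothelial calls from 5 to 2, since genes near 0 in WT then failed the filter. Replicate numbers did not pair the groups: same-numbered libraries had correlations of deviations of -0.00079, 0.020 and 0.011. With the number as a replicate block 10440 genes were called, and no call of a regulator changed.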

Other observations

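Genes of the mTORC1 pathway that Sesn2 feeds into were called about as often as genes at large. Of 29 tested genes of amino acid sensing, the sestrin-binding GATOR complexes and mTORC1 itself, 12 were higher and 12 lower. Over all tested genes 38.3% were higher and 39.0% lower. The median log2 fold change of the list was -0.0021, against 0.0014 over all tested genes. Rragd, a small GTPase that carries the amino acid signal, climbed from 2, 3 and 4 across WT libraries to 89, 99 and 120 across CSE-KO libraries. It was tested only because of the CSE-KO libraries. Ddit4l, a relative of the mTORC1 inhibitor REDD1, rose by a log2 fold change of 1.87 (SE 0.091, adjusted p = 1.3e-08). The inhibitors Tsc1 and Akt1s1 rose by 0.80 (SE 0.042) and 0.69 (SE 0.032), but other inhibitors of the list were lower. Tsc2 fell by 0.56 (SE 0.040), Castor2 by 1.59 (SE 0.065), Castor1 by 0.91 (SE 0.10) and Deptor by 0.57 (SE 0.17), all picked after their values were seen.

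Of 23 tested genes of the IRE1 and ATF6 branches of the unfolded protein response, 13 were higher and 5 lower. The shares over all tested genes were 38.3% and 39.0%. The median log2 fold change of the list was 0.14. Ern1, which encodes the sensor IRE1, rose by 1.07 (SE 0.044, adjusted p = 9.7e-09) and the chaperone gene Dnajb9 by 0.84 (SE 0.044). Hspa5, the chaperone BiP of the endoplasmic reticulum, had 1659, 1602 and 1641 normalized counts in the WT libraries against 2149, 2236 and 2206 in those labelled CSE-KO, a log2 fold change of 0.43 (SE 0.023). Creld2 rose by 0.59 (SE 0.037). Other genes, picked after their values were seen, did not rise. Edem1 fell by 0.56 (SE 0.037) and Edem2 by 0.49 (SE 0.044). Xbp1, from the bZIP genes, differed by 0.0072 (SE 0.033) and was not called. Whether these lists differ from the regulators was not tested.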
